A study of Mus musculus with 16 samples.

Results

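Pck1, Gys2 and Ugp2 encode enzymes with which liver makes glucose and stores it as glycogen. They were chosen by symbol, as the array probes whose single gene symbol is Pck1, Gys2 or Ugp2. Earlier results of these data were known at that choice, so the p-values and ranks of the 3 genes are not independent tests. Each gene had 1 probe, and the 3 belong to 8348 genes and unnamed probes tested. Liver poly(A) RNA came from 8 female APOE3-Leiden mice, a transgenic line bred onto C57BL6/JIco expressing the human APOE*3-Leiden allele, which impairs lipoprotein clearance. From 10 weeks of age and for 4 weeks, these mice ate a Western-type diet (15 g fat and 0.25 g cholesterol per 100 g) with 0.04% cafestol and 0.02% kahweol, the diterpenes of unfiltered coffee, added by weight. The control was liver RNA of APOE3-Leiden females on the same diet without the diterpenes, from a group of 7 mice, of which no label names a single animal. The treated mice carry identifiers of a series SY (4 mice) or TP (4 mice), whose meaning the labels do not give.

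Each treated liver was hybridised on 2 cDNA arrays, with the treated liver in Cy5 and the control RNA in Cy3 on all 16 arrays and the dyes swapped on 0 of them. Since no label names a control animal, the control RNA was treated as a shared reference. The test is the ratio against 0, and with such a reference variation between control animals does not enter it. Dye bias of a single gene would be present on every array, and its part was not tested. An array held 8094 to 9314 measured probes, and every array had a median log2 ratio of 0. Over all probes the 2 arrays of 1 mouse correlated at 0.752 to 0.912 (8 pairs), and arrays of different mice at 0.150 to 0.810 (112 pairs). Precision is limited by the 8 mice and 16 arrays.

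All values are log2 ratios of the 2 channels as deposited, and the sources used here do not say which channel is on top. Signs are therefore printed as deposited, and a positive value is not read as higher in the cafestol livers. For orientation, Gstm1, a glutathione transferase that these diterpenes are known to induce in rodents, averaged -2.48 ± 0.23, and Cyp7a1, the bile acid synthesis enzyme that they are known to lower in rodents, averaged 1.56 ± 0.38 (SD, n = 8 mice). The deposited values are logs of ratios with 1 decimal, so the smallest step from 0 is 0.138, and 31.8% of all values were 0.

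Gluconeogenesis makes glucose from lactate, amino acids and glycerol when food is absent. Pck1, the cytosolic phosphoenolpyruvate carboxykinase, turns oxaloacetate into phosphoenolpyruvate, a committed step of the pathway, and its transcription is known to respond to glucagon through cAMP, to glucocorticoids and to insulin. Ugp2, UDP-glucose pyrophosphorylase, makes UDP-glucose, the donor of glucose units for glycogen and the precursor of the UDP-glucuronic acid that conjugates drugs and bilirubin. Gys2, the liver form of glycogen synthase, adds glucose from UDP-glucose to the growing glycogen chain.

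The windows just upstream of the Pck1 and Ugp2 transcription starts are shown because hormonal control of Pck1 is known to act in this stretch, and because Pck1 and Ugp2 had ratios of opposite sign. RefSeq promoters (build GRCm38.p6) were available for 2 of the 3 genes, in 3 windows of 250 bases. The Pck1 window lies at chr2:173152823-173153072 on the plus strand, and the distal of the 2 Ugp2 windows lies at chr11:21371268-21371517 on the minus strand. Capitals mark the only match among the motifs searched, and a window without capitals holds none of them.
Pck1: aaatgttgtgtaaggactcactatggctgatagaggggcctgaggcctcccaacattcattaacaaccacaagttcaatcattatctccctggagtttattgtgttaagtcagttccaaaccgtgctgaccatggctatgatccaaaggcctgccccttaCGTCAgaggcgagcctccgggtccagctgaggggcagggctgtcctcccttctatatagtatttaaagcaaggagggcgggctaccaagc
Ugp2: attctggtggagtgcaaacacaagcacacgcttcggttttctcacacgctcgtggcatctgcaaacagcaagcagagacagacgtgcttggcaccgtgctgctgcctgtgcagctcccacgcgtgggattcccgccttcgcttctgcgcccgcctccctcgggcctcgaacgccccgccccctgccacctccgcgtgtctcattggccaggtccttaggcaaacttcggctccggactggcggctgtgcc

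The match in Pck1 is TGACG, the short form of the cAMP response element, read on the minus strand at positions -90 to -86 before the start. These 5 letters occur on either strand in 17.8% of the 32851 windows of the table. The other letters searched on both strands were the full element TGACGTCA (in 1.55% of windows), the FOXO site TGTTTAC (3.17%), the E-box CACGTG (6.02%), the antioxidant response element TGACNNNGC (10.2%), the short glucocorticoid element TGTTCT (16.1%) and the TATA box TATAAA (12.4%). The full cAMP element contains the short form on both strands, and the antioxidant element can overlap it. Neither Ugp2 window held any of these letters, the second lying at chr11:21370630-21370879. The Pck1 window had 50.8% G and C and 5 CpG dinucleotides, near the medians of all windows (52.4% and 6). The Ugp2 windows had 64% and 73.6% G and C and 21 and 23 CpG dinucleotides, above the upper quartiles (61.2% and 16). A match describes the letters only.

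Pck1 and Gys2 had positive and Ugp2 had negative ratios of almost the same size, 1.39-fold, 1.39-fold and 1.38-fold from equality. The mouse mean lay on 1 side of 0 in 8 of 8 mice for Gys2 and Ugp2 and in 7 of 8 mice for Pck1. Among all 8348 genes and unnamed probes, 8.29% differed from equality by 1.2-fold or more.

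**Figure D1:**
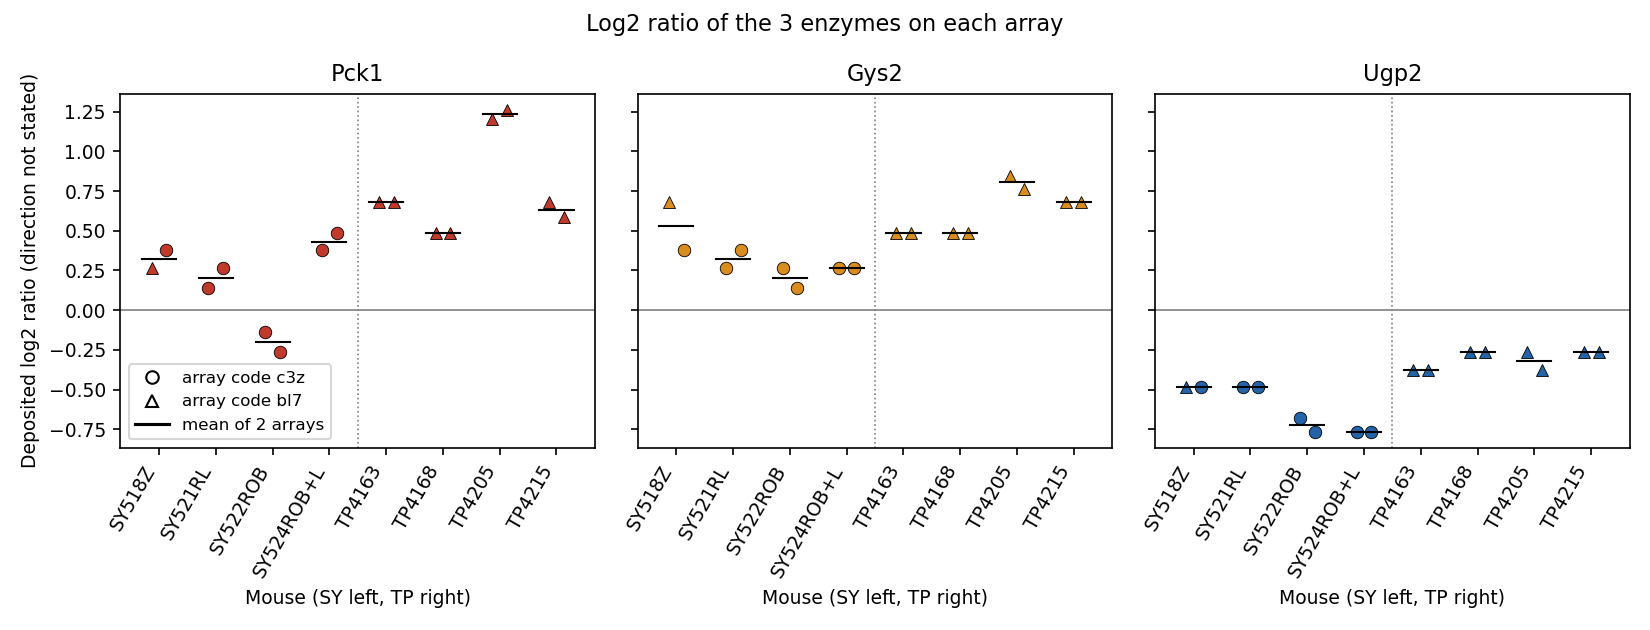
Deposited log2 ratio (vertical axis) of Pck1, Gys2 and Ugp2 on each of 16 arrays, by mouse (horizontal axis). Circles are arrays with the code c3z, triangles arrays with the code bl7, and black bars the mean of the 2 arrays of a mouse. All Ugp2 points lie below 0 and all Gys2 points above 0, and SY522ROB is the only mouse with Pck1 below 0.

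In the SY mice, Pck1 read 0.26 and 0.38 on the arrays of SY518Z, 0.14 and 0.26 in SY521RL, -0.14 and -0.26 in SY522ROB, and 0.38 and 0.49 in SY524ROB+L. In the TP mice, it read 0.68 on both arrays of TP4163, 0.49 on both arrays of TP4168, 1.202 and 1.263 in TP4205, and 0.68 and 0.585 in TP4215. TP4205 was the highest mouse and SY522ROB the lowest, with both of its arrays below 0. The mean was 0.47 ± 0.41 (SD, n = 8 mice; moderated SE 0.114 with its 95% interval 0.22 to 0.72), past the threshold in limma (adjusted p = 0.00573) and in the exact sign-flip permutation test (two-sided p = 0.0234). The SD between mice, 0.413, was larger than the SD between the 2 arrays of a mouse, 0.0655. Pck1 ranked 39 of 8348 in SD between mice, where the median was 0.106. The moderated SE is that of limma, which draws the spread of a gene toward that of all genes. Leaving out any 1 mouse kept the mean between 0.36 and 0.57 and the adjusted p between 0.00115 and 0.0185 (limma). The call was lost in the SY mice alone (mean 0.19, limma adjusted p = 0.268), on the c3z arrays alone (0.20, adjusted p = 0.273), and when the control RNA was given the sampling error of a pool of 7 animals with the spread of the treated mice (adjusted p = 0.0634).

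In the SY mice, Gys2 read 0.68 and 0.38 on the arrays of SY518Z, 0.26 and 0.38 in SY521RL, 0.26 and 0.14 in SY522ROB, and 0.26 on both arrays of SY524ROB+L. In the TP mice, it read 0.49 on all 4 arrays of TP4163 and TP4168, 0.85 and 0.77 in TP4205, and 0.68 on both arrays of TP4215. All 16 values were positive, and the highest and lowest mice were those of Pck1, TP4205 and SY522ROB. The mean was 0.47 ± 0.21 (SD, n = 8 mice; moderated SE 0.0606 with its 95% interval 0.34 to 0.60; limma, adjusted p = 9.97e-05). The exact sign-flip permutation test gave p = 0.00781, the smallest that 256 sign patterns allow. Without any 1 mouse the mean stayed between 0.42 and 0.51.

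In the SY mice, Ugp2 read -0.49 on all 4 arrays of SY518Z and SY521RL, -0.68 and -0.77 on those of SY522ROB, and -0.77 on both arrays of SY524ROB+L. In the TP mice, it read -0.38 on both arrays of TP4163, -0.26 on all 4 arrays of TP4168 and TP4215, and -0.26 and -0.38 in TP4205. All 16 values were negative, and each SY mouse lay farther from 0 than any TP mouse. The mean was -0.46 ± 0.20 (SD, n = 8 mice; moderated SE 0.0578 with its 95% interval -0.59 to -0.33; limma, adjusted p = 8.41e-05), with p = 0.00781 in the exact sign-flip permutation test. The 2 arrays of a mouse read the same rounded ratio or the next one, so the SD of 0.0362 between them is limited by the rounding. Without any 1 mouse the mean stayed between -0.49 and -0.42.

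All 3 genes passed the test across all features, where 43.4% passed with either sign, 18% with a positive and 25.4% with a negative ratio. By the size of the mean they ranked 121 (Pck1), 122 (Gys2) and 136 (Ugp2) of 8348. Since the genes were chosen with earlier results known, these calls and ranks are no independent support. Against a minimum difference of 1.2-fold none of the 3 passed (limma, adjusted p = 1 for Pck1, 0.128 for Gys2 and 0.131 for Ugp2). Probe sequences were not used here, so binding of related transcripts (Pck2 to the Pck1 probe, Gys1 to the Gys2 probe) was not tested. In whole liver, fewer cells of a type and less RNA per cell cannot be told apart.

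**Figure D2:**
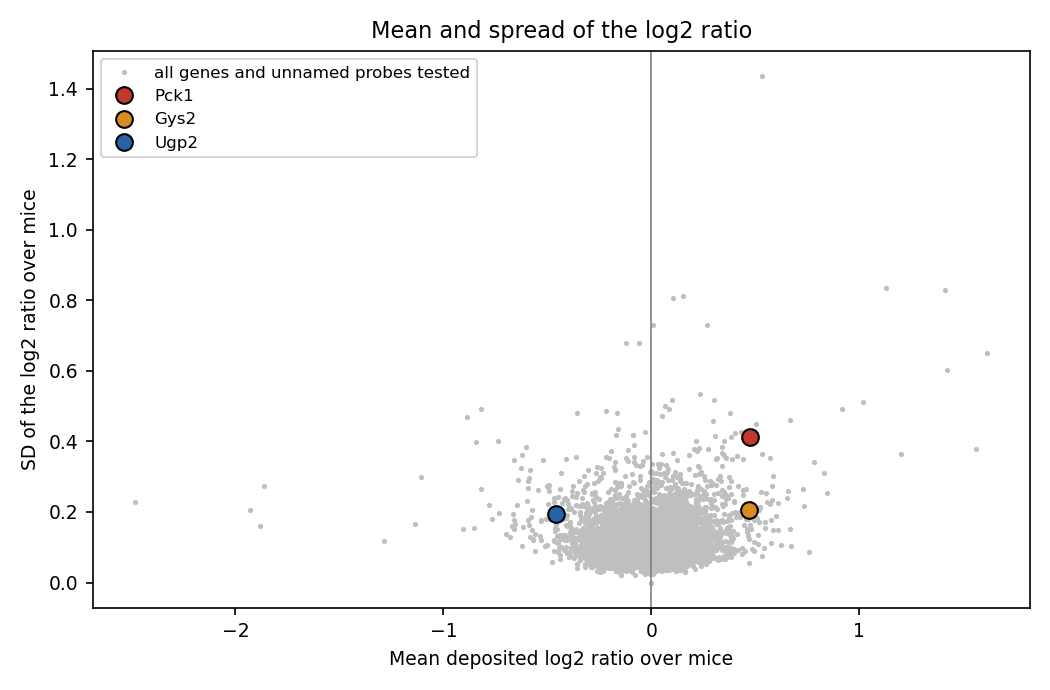
Mean deposited log2 ratio over mice (horizontal axis) against its SD over mice (vertical axis), for 8348 genes and unnamed probes (grey points) and the 3 enzymes (coloured). Pck1 and Gys2 have the same mean of 0.47 with SDs of 0.41 and 0.21, and Ugp2 lies at -0.46 with an SD of 0.20.

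The identifier series split the 8 mice in the same direction for each enzyme, with lower deposited ratios in SY than in TP. Pck1 averaged 0.19 ± 0.28 in SY mice and 0.76 ± 0.33 in TP mice (SD, n = 4 each), and the groups did not overlap. Its difference of -0.57 (SE 0.158) was just short of the threshold in limma (adjusted p = 0.0553), and the exact permutation test gave p = 0.0286, the smallest that 70 splits allow. Gys2 averaged 0.33 ± 0.14 in SY mice and 0.61 ± 0.16 in TP mice, a difference of -0.29 (SE 0.0883) that did not pass (limma, adjusted p = 0.0776; exact permutation p = 0.0857). SY518Z, at 0.53, lay above the lowest TP mice, at 0.49. Ugp2 averaged -0.61 ± 0.15 in SY mice and -0.31 ± 0.06 in TP mice, and its difference of -0.31 (SE 0.0734) passed (limma, adjusted p = 0.0355; exact permutation p = 0.0286). Pck1 and Gys2 thus lay farther from 0 in TP mice, and Ugp2 lay farther from 0 in SY mice. Over all features 5.7% were called between the series, 4.41% with SY below TP, and 5.79% had all 4 SY mice below all 4 TP mice.

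The call of Ugp2 between the series did not hold in every set of 7 mice. Its adjusted p was 0.0741 without SY521RL, 0.125 without SY522ROB, 0.116 without SY524ROB+L, 0.0816 without TP4168, 0.102 without TP4205 and 0.0826 without TP4215 (limma), while it passed without SY518Z or TP4163. Without SY518Z, Pck1 and Gys2 passed as well (limma, adjusted p = 0.0421 and 0.0212). The count of features called between the series was 476, and it ran from 43 without SY521RL to 1249 without SY518Z.

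The series also nearly follow a code in the array names, which the labels do not explain: the arrays of SY mice carry c3z and those of TP mice bl7, except that SY518Z has 1 array of each. Within SY518Z the bl7 array minus the c3z array gave -0.12 for Pck1, 0.30 for Gys2 and 0.00 for Ugp2. On bl7 arrays alone, SY518Z minus the mean of the 4 TP mice was -0.49 for Pck1, 0.06 for Gys2 and -0.18 for Ugp2, a comparison of 1 mouse with 4 that has no test. The other 3 SY mice, on c3z arrays, minus the 4 TP mice gave -0.61, -0.35 and -0.35 in the same order. With the code as a covariate, an alternative chosen after seeing the data, the difference between the series was -0.60 for Pck1, 0.01 for Gys2 and -0.26 for Ugp2, and none passed (limma, adjusted p = 0.186, 0.983 and 0.271). Outside SY518Z, series and code cannot be told apart.

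The genes whose 8 mouse values lay nearest to each enzyme were found by the root mean square difference of the log2 ratio, among 6180 named genes measured in all 8 mice. Such a distance follows both the mean and the order of the mice, and the genes share the same arrays and control RNA. Pck1 was nearest to Klf15 (distance 0.230), a transcription factor that promotes gluconeogenic genes in fasted mouse liver, then to Gys2 (0.242) and to Slc29a1 (0.250), an equilibrative nucleoside transporter. Gys2 was much nearer to its neighbours: Slc29a1 (0.0628), Klf15 (0.0716) and Mcm10 (0.0924), a DNA replication factor. Klf15 averaged 0.52 ± 0.21 (SD, n = 8 mice), from 0.26 in SY522ROB to 0.92 in TP4205. As a gene picked here for its nearness, Klf15 has no test in this paragraph, and its call as a listed regulator of Pck1 is given below. The same mice were lowest and highest for Pck1, Gys2 and Slc29a1. Klf15 lay between 0.26 and 0.54 in SY mice and between 0.49 and 0.92 in TP mice, so the series overlapped.

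Ugp2 was nearest to Wnt4 (distance 0.1295), a secreted Wnt ligand, then to Ebp (0.138), the sterol isomerase of cholesterol synthesis, and to B2m (0.138), the light chain of MHC class I. Their means were -0.56, -0.39 and -0.39. SY522ROB was the lowest mouse for all 3 of these genes, whereas for Ugp2 it was SY524ROB+L. Wnt4 lay between -0.76 and -0.58 in SY mice and between -0.48 and -0.38 in TP mice without overlap, a split like that of Ugp2, for whose values Wnt4 was picked, so it is given without a test. All 4 SY mice lay below all 4 TP mice in 5.79% of all features.

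**Figure D3:**
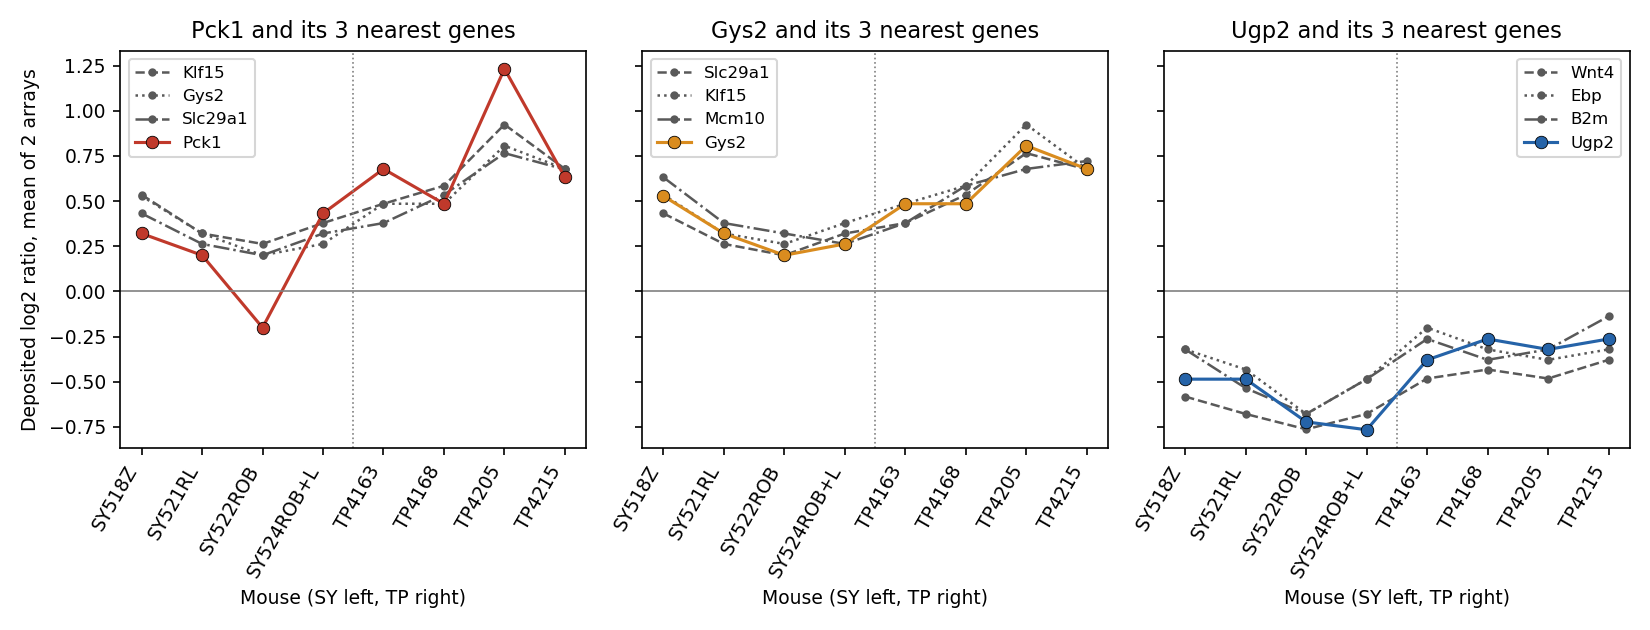
Deposited log2 ratio per mouse (vertical axis, mean of 2 arrays) of each enzyme (coloured) and its 3 nearest genes (grey), with SY mice left and TP mice right of the dotted line. The lines of Gys2, Slc29a1 and Klf15 nearly coincide, while Pck1 swings more widely, from -0.20 in SY522ROB to 1.23 in TP4205.

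Of the gluconeogenesis list, 8 genes were tested and 3 were called (37.5%, or 28.6% without Pck1, against 43.4% of all features). All 3 were positive: Pck1 and both parts of the final step, in which glucose 6-phosphate is carried into the endoplasmic reticulum and split. Slc37a4, the glucose 6-phosphate transporter, averaged 0.34 ± 0.33 (SD, n = 8 mice; limma, adjusted p = 0.0111) and was positive in 7 of 8 mice. It was lowest in SY522ROB (-0.14) and highest in TP4205 (0.81), as Pck1 was. G6pc, the glucose 6-phosphatase, averaged 0.30 ± 0.42 (limma, adjusted p = 0.0492), positive in 6 of 8 mice, but its mice came in another order. G6pc read 0.26, 0.07, 0.49 and 0.38 in SY518Z, SY521RL, SY522ROB and SY524ROB+L, against 0.63, 1.0, -0.07 and -0.32 in TP4163, TP4168, TP4205 and TP4215. The mouse with the highest Pck1, TP4205, thus had G6pc just below 0. The G6pc call was lost without any of SY518Z, SY521RL, SY522ROB, SY524ROB+L, TP4163 or TP4168 (limma, adjusted p = 0.0506 to 0.125). Pcx, the pyruvate carboxylase that feeds oxaloacetate to Pck1 (0.08 ± 0.12, adjusted p = 0.116), and Pck2, the mitochondrial carboxykinase (0.02 ± 0.15, adjusted p = 0.713), were not called (limma). The list had a median of 0.05, against -0.02 over all features, and with the control as a mix of 7 mice 0 of its genes passed.

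Of 6 genes that supply precursors, 3 were positive, 1 was negative and 2 were not called, with a median of 0.24. The called share was 66.7%, against 43.4% of all features. The malate dehydrogenases Mdh1 (0.47 ± 0.13; limma, adjusted p = 1.22e-05) and Mdh2 (0.20 ± 0.11), cytosolic and mitochondrial, and the alanine aminotransferase Gpt (0.29 ± 0.14) were the positive genes. Ldhb, a lactate dehydrogenase subunit, was negative (-0.23 ± 0.11). Mdh1 had a mean close to that of Pck1 with a smaller spread, and its mice lay between 0.32 and 0.68. Got1, the cytosolic aspartate aminotransferase, was not called against 0 (0.30 ± 0.52; limma, adjusted p = 0.104) but differed between the series. Got1 read -0.32, -0.14, 0.20 and -0.26 in SY518Z, SY521RL, SY522ROB and SY524ROB+L, against 0.38, 0.85, 1.0 and 0.72 in TP4163, TP4168, TP4205 and TP4215. The groups did not overlap, and the difference was -0.87 (limma, adjusted p = 0.00892). Over all features 5.79% had all 4 SY mice below all 4 TP mice. Got1 was named outside the rule for uncalled genes, with earlier results of these data known, so its p-value is not an independent test.

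In the glycogen synthesis list, Gys2 was the only positive call among 10 genes tested, beside 3 negative ones and 6 not called (median -0.05; 40% called, or 25% without Gys2 and Ugp2, against 43.4% of all features). The negative genes were Ugp2, Ppp1ca and Gys1. Ppp1ca, a catalytic subunit of the phosphatase that dephosphorylates glycogen synthase, averaged -0.30 ± 0.11 (SD, n = 8 mice; limma, adjusted p = 6.96e-05) with the same sign in 8 of 8 mice. Gys1, the glycogen synthase of muscle and other tissues, averaged -0.09 ± 0.06 (limma, adjusted p = 0.0204), less than the smallest measured step, and did not pass without SY521RL or TP4163 (limma, adjusted p = 0.0513 to 0.05335). The genes for the steps beside the members were not called: the phosphoglucomutase Pgm2 (0.08 ± 0.17; limma, adjusted p = 0.229), the glycogen primer glycogenin, Gyg (-0.06 ± 0.08; adjusted p = 0.162), and the branching enzyme Gbe1 (-0.03 ± 0.04; adjusted p = 0.296). Of 3 glycogen breakdown genes 1 was called (33.3%, against 43.4% of all features), the lysosomal glucosidase Gaa. It averaged -0.15 ± 0.08 (limma, adjusted p = 0.00292).

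Of 5 genes that use or carry UDP-sugars, 3 had negative calls and 2 were not called, with a median of -0.11. The called share was 60%, against 43.4% of all features. The called genes were the glucuronosyltransferase Ugt2b36 (-0.24 ± 0.21), the UDP-sugar transporter Slc35d1 (-0.17 ± 0.17) and the galactose 1-phosphate uridylyltransferase Galt (-0.11 ± 0.10). Galt did not pass without TP4168, TP4205 or TP4215 (limma, adjusted p = 0.0666 to 0.0865), and with the control as a mix of 7 mice 0 of the 5 passed. Of 10 genes of glycolysis and glucose uptake, 3 were positive, 3 negative and 4 not called (median 0.01). Here too 60% were called, against 43.4% of all features. Hexokinase Hk1 (0.23 ± 0.20), the liver glucose transporter Slc2a2 (0.18 ± 0.15) and pyruvate kinase Pklr (0.17 ± 0.22) were positive, and the aldolase Aldoa (-0.32 ± 0.12) and the enolases Eno3 (-0.28 ± 0.10) and Eno2 (-0.10 ± 0.09) were negative. Pklr did not pass without SY518Z, SY524ROB+L, TP4163, TP4168 or TP4205, nor Eno2 without SY518Z, SY521RL, TP4163, TP4205 or TP4215 (limma, adjusted p up to 0.124 and 0.075). With the control as a mix of 7 mice 2 of the 10 passed.

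**Figure D4:**
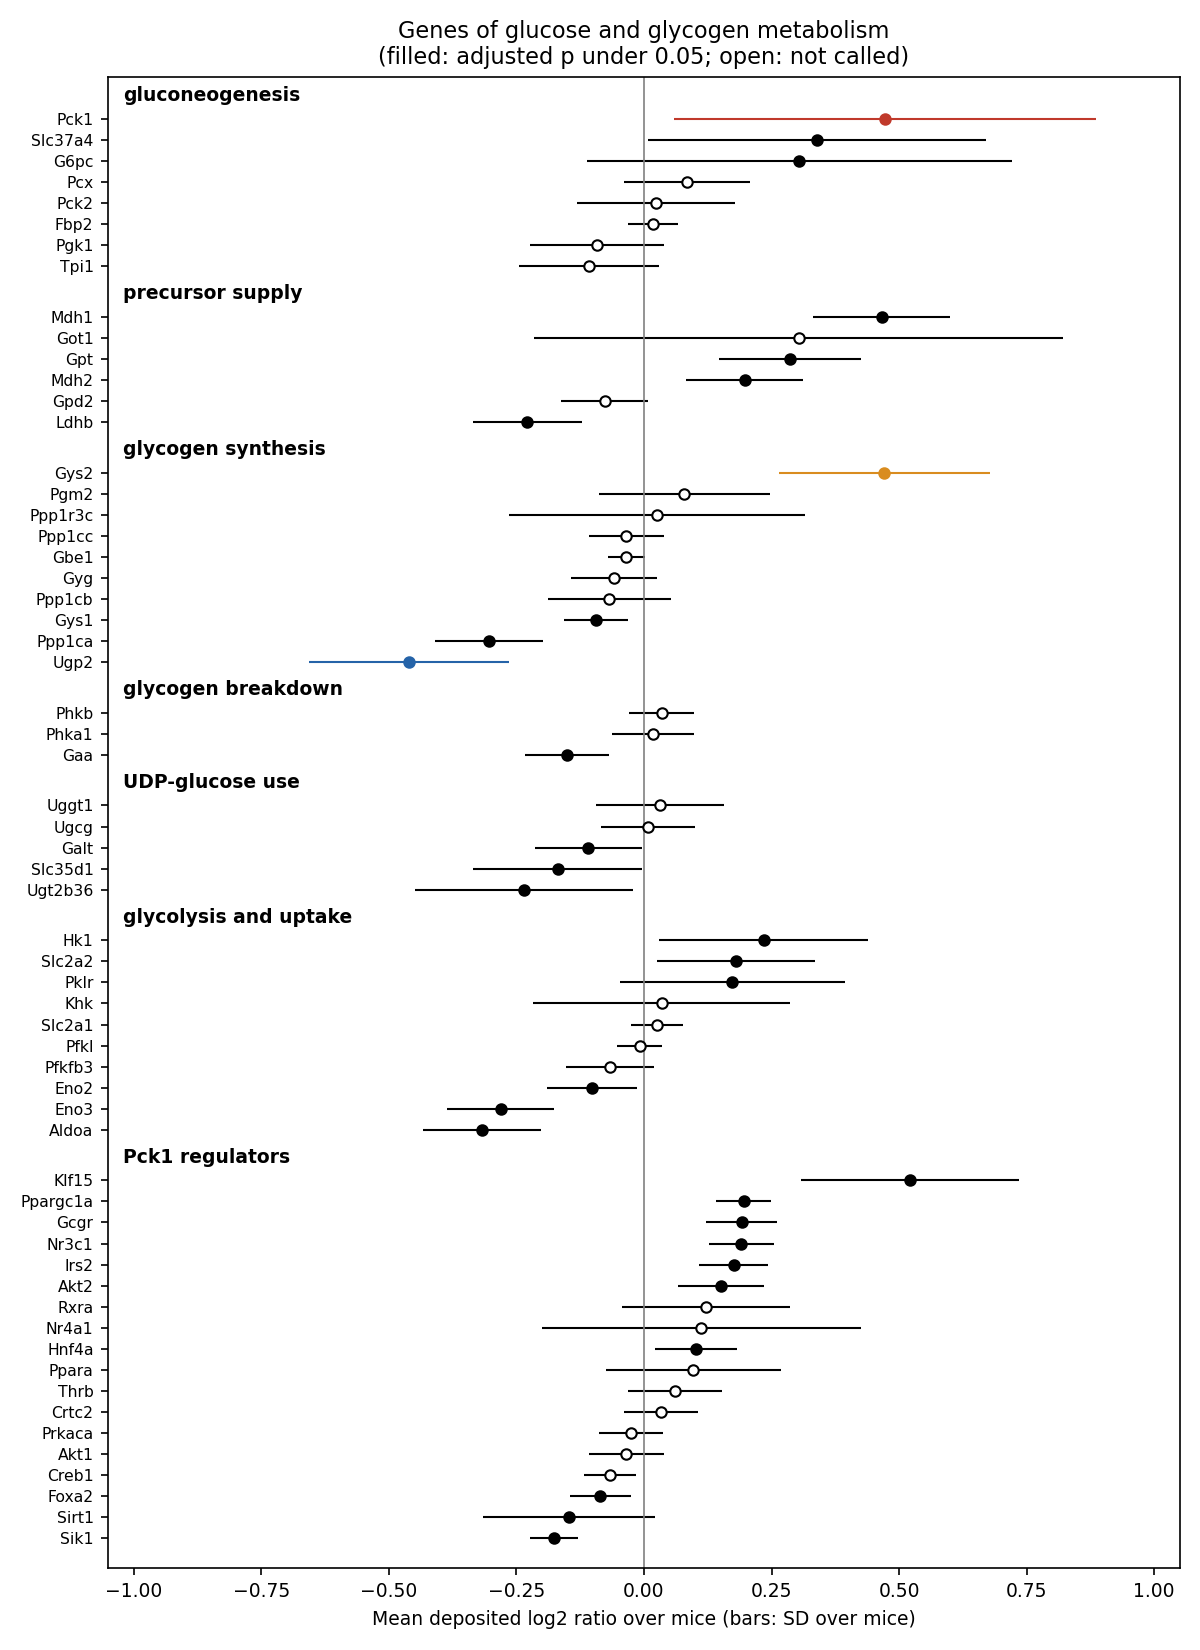
Mean deposited log2 ratio over mice (horizontal axis; points, with bars for the SD over mice) of the tested genes of 7 lists, with the 3 enzymes in colour; filled points passed an adjusted p of 0.05. Pck1 and Gys2 lie at 0.47 at the top of their lists, and Ugp2 at -0.46 is the lowest gene of the glycogen synthesis list.

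Among 18 genes known to regulate Pck1, 7 were positive, 3 negative and 8 not called, with a median of 0.10. The called share was 55.6%, against 43.4% of all features. As a member of this list, Klf15 was 1 of the 7 positive genes (limma, adjusted p = 6.07e-05). The list was chosen with earlier results known and Klf15 also lay near Pck1, so its call is not an independent test. After Klf15 the positive genes were small in size: the coactivator Ppargc1a (0.20 ± 0.05), the glucagon receptor Gcgr (0.19 ± 0.07), the glucocorticoid receptor Nr3c1 (0.19 ± 0.06), the insulin signalling adaptor Irs2 (0.18 ± 0.07), the kinase Akt2 (0.15 ± 0.08) and the nuclear receptor Hnf4a (0.10 ± 0.08). Ppargc1a, Gcgr, Nr3c1 and Irs2 were positive in 8 of 8 mice, and the highest adjusted p among these 4 was 0.000636 (limma). The negative genes were the kinase Sik1 (-0.18 ± 0.05), which restrains CREB coactivators, the deacetylase Sirt1 (-0.15 ± 0.17) and the forkhead factor Foxa2 (-0.09 ± 0.06). Hnf4a did not pass without SY522ROB or TP4163, Foxa2 without SY521RL, SY524ROB+L, TP4168, TP4205 or TP4215, and Sirt1 without SY518Z, SY521RL, TP4163, TP4168, TP4205 or TP4215 (limma, adjusted p up to 0.0629, 0.0749 and 0.0929).

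Further lists held genes of the fed and the fasted state. Of 5 fasting genes, 1 was positive (Bdh1, a ketone body dehydrogenase, 0.20 ± 0.12), 2 were negative and 2 were not called. The called share was 60% for this list and 40% for the lipogenic list below, against 43.4% of all features. Igfbp1, an insulin-repressed binding protein of the insulin-like growth factors, averaged -0.41 ± 0.35 (SD, n = 8 mice; limma, adjusted p = 0.00505), opposite in sign to Pck1, and Pdk4, the kinase that inactivates pyruvate dehydrogenase, averaged -0.11 ± 0.09. Pdk4 did not pass without SY521RL, TP4163, TP4168 or TP4205 (limma, adjusted p up to 0.0629), and with the control as a mix of 7 mice 1 of the 5 passed. Of 5 lipogenic genes that insulin induces, malic enzyme Me1 (-0.43 ± 0.19; limma, adjusted p = 0.000115) and the stearoyl-CoA desaturase Scd1 (-0.33 ± 0.24; adjusted p = 0.00222) were negative, and 3 were not called. Over these pathway lists together, without the 3 enzymes, 33 of 67 genes were called (49.3%, against 43.4% of all features), 16 positive and 17 negative, with a median of 0.01.

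The liver label could not be checked by expression level, since a ratio holds none. Pck1 is also active in fat and kidney, Ugp2 in many tissues. Beside the marker counts that follow, 18% of all features were positive and 25.4% negative. Of 7 hepatocyte markers 1 was positive and 1 negative (median 0.01; Trf -0.41, Fgb 0.23, Alb 0.14), of 6 adipocyte markers 0 and 3 (median -0.07; Pparg -0.19, Lipe -0.10, Slc2a4 -0.09), and of 5 kidney tubule markers 1 and 1 (median -0.01). Of 6 muscle markers 6 were negative (median -0.20; Acta1 -0.57, Ckm -0.34, Myh1 -0.24), and of 8 macrophage markers 5 were negative and 3 not called (median -0.20; Cd68 -0.65, Ctss -0.38, C1qa -0.23). The related actins Actb, Actg2, Actc1 and Acta2 were negative too (-0.78, -0.60, -0.55 and -0.49). Binding of their transcripts to the Acta1 probe was not tested. Slc2a4 did not pass without SY518Z, SY521RL, SY522ROB, SY524ROB+L, TP4163 or TP4205 (limma, adjusted p up to 0.0921). The mean over the hepatocyte markers ran from -0.18 to 0.30 in SY mice and from -0.08 to 0.10 in TP mice. The mean over the adipocyte markers ran from -0.20 to 0.01 in SY mice and from -0.12 to -0.02 in TP mice. For the kidney markers it ran from -0.09 to 0.02 in SY mice and from -0.02 to 0.19 in TP mice. The muscle markers averaged -0.30 to -0.18 in SY mice and -0.29 to -0.26 in TP mice. The macrophage markers averaged -0.39 to -0.26 in SY mice and -0.37 to 0.14 in TP mice. Among them Adgre1, a macrophage surface receptor, was -0.18 in SY mice and 0.13 in TP mice on average (difference -0.31; limma, adjusted p = 0.0483), a call lost without any of SY521RL, SY522ROB, SY524ROB+L, TP4168, TP4205 or TP4215 (adjusted p = 0.0804 to 0.156).

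Pck1 is a gene of periportal hepatocytes. Of 5 periportal markers measured, Pck1 was positive, 2 were negative (Cyp2f2 -0.60, Hal -0.35) and 2 were not called. Cyp2f2 was 0.26 in SY518Z and between -1.0 and -0.54 in the other mice. The series differed for some of these markers, in opposite directions, while Pck1 was just short of the threshold (limma, adjusted p = 0.0553). Cps1, the first enzyme of the urea cycle, averaged -0.10 in SY mice and 0.70 in TP mice without overlap (difference -0.80; limma, adjusted p = 0.00413). Hal, the histidine ammonia-lyase, averaged -0.11 in SY mice and -0.58 in TP mice without overlap (difference 0.47; limma, adjusted p = 0.0178), a call lost without SY522ROB, SY524ROB+L or TP4205 (adjusted p = 0.0634 to 0.0703). Over all features 5.79% had all 4 SY mice below all 4 TP mice, as Cps1 had. The share with all SY mice above all TP mice, as for Hal, was not computed, but 108 of 8348 features were called with SY above TP. Cps1 and Adgre1 are named after their values were seen. The mean over the periportal markers other than Pck1 ran from -0.37 to 0.12 in SY mice and from -0.10 to -0.03 in TP mice. Of 6 pericentral markers 3 were positive (Oat 0.84, Slc1a2 0.58, Cyp2e1 0.22) and 3 not called, with a median of 0.19. Cyp2e1 did not pass without SY518Z, TP4163, TP4168, TP4205 or TP4215 (limma, adjusted p up to 0.0793). Their mean ran from 0.05 to 0.56 in SY mice and from 0.25 to 0.45 in TP mice. The part of these marker genes in the ratios of Pck1, Gys2 and Ugp2 was not tested.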

How the data were processed

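The values used are log2 ratios between the channels of an array, as deposited by the authors. Normalization, background correction and the numerator channel are details not given in the sources used here. Per the labels, the same RNA of a mouse was labelled and hybridised to 2 arrays, so the arrays of a mouse are technical repeats and were averaged (n = 8). Genes were named from the platform annotation (7407 probes with 1 gene symbol, 437 with several, 1752 with none). Probes of a gene were averaged. Features with values in 6 or more mice were tested with limma 3.58.1 in R 4.3.3 (linear model with empirical Bayes moderation; two-sided p adjusted by Benjamini-Hochberg over 8348 features; threshold 0.05), for the mean against 0 and for SY minus TP. No label names separate litters or batches, so p-values measure the spread between these mice. Single genes were also tested by exact permutation.

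The 3 genes, the gene lists and the named genes were chosen with earlier results of these data known. Named were the 3 enzymes, the called genes of each pathway list, neighbouring steps (G6pc, Pcx, Pck2, Gys1, Gbe1, Gyg, Pgm2) whether called or not, up to 3 marker genes farthest from 0 per list and, after their values were seen, those called between SY and TP, and the 3 genes nearest to each enzyme. Got1, not called against 0, was named outside these rules, with the earlier results known. The actins beside Acta1 were also named outside these rules, after their values were seen. Fbp1, Pgm1 and Pygl were not analysed here. The fits were tested on simulated data. Alternatives covered centring, scaling, quantile normalization, probes, blanks, moderation, single arrays, array code, series, each mouse left out, the spread of control mice and a minimum fold. Figures were drawn with matplotlib 3.10.9.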

Additional observations from a re-analysis of the deposited data

Results flagged for a closer look

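Among the genes described, leaving out those picked for their likeness to an enzyme, the SY and TP mice differed in limma for Ugp2, Got1, Cps1, Adgre1 and Hal. SY lay below TP by a difference of -0.31 for Ugp2 (adjusted p = 0.0355), -0.87 for Got1 (adjusted p = 0.00892), -0.80 for Cps1 (adjusted p = 0.00413) and -0.31 for Adgre1 (adjusted p = 0.0483). SY lay above TP for Hal, by 0.47 (adjusted p = 0.0178). Cps1 and Adgre1 were named because they were called between the series, and Got1 with earlier results known, so this list is no independent support. Over all features 5.7% were called between the series. The calls of Ugp2 and Adgre1 were each lost without any of 6 mice, and that of Hal without any of 3. The array code, which nearly follows the series, was not separated from it in these values.

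Single mice stood apart from the other 7 in 3 of 77 groups of values examined over 69 genes, and chance marks about 5% of such groups. Slc2a2, the liver glucose transporter, read -0.14 in SY522ROB and between 0.14 and 0.38 in the other mice. Igfbp1 read -1.17 in SY518Z and between -0.54 and 0 in the others. Cyp2f2, a periportal cytochrome, read 0.26 in SY518Z and between -1.0 and -0.54 in the others.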

How the results depend on the processing

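The signs of the Pck1, Gys2 and Ugp2 means against 0 held in all 18 alternatives and without each mouse, and Gys2 and Ugp2 passed in all of these but the test against 1.2-fold (limma, adjusted p = 0.128 at 0.47 and 0.131 at -0.46). Pck1 did not pass on c3z arrays (0.20), in SY mice alone (0.19), with the control as a mix of 7 mice (0.47) or against 1.2-fold (0.47). Without each mouse the means ran from 0.36 to 0.57 (Pck1), 0.42 to 0.51 (Gys2) and -0.49 to -0.42 (Ugp2). The count of features called against 0 was 3622 and ran from 3033 to 3722 without each mouse; it was 2191 on c3z arrays, 2159 in SY mice, 1811 with the mixed control and 123 against 1.2-fold. With that mixed control the lists lost calls: gluconeogenesis and UDP-glucose use had 0, glycolysis 2 and the fasting list 1. Between SY and TP, Ugp2 did not pass on first arrays (-0.31), second arrays (-0.30) or with the array code as a covariate (-0.26), an alternative chosen after seeing the data, in which Gys2 changed sign (0.0103). With 16 arrays blocked by mouse, Pck1 (-0.57) and Gys2 (-0.29) passed (limma, adjusted p = 0.0104 and 0.0425), whereas on mouse means neither did. The blocked fit applies 1 correlation between the arrays of a mouse to all features. For Pck1 the SD was 0.413 between mice and 0.0655 between arrays, and its SE fell from 0.158 to 0.124. That fit can thus count technical repeats as extra mice. Without each mouse the differences ran from -0.66 to -0.41 (Pck1), -0.35 to -0.22 (Gys2) and -0.35 to -0.26 (Ugp2). The count between the series, 476, was 0 on first arrays (limma; 1467 at an unadjusted p under 0.05), 228 on second arrays and 120 with the code, and ran from 43 to 1249 without each mouse: 43 without SY521RL, 52 without SY524ROB+L, 57 without SY522ROB, 77 without TP4205, 183 without TP4215, 188 without TP4168 and 1249 without SY518Z. The causes were not tested. No paired analysis was possible because the labels give SY and TP mice no shared replicate numbers. The step of 0.138 limits small ratios. Called means smaller than this step were those of Gys1, Hnf4a, Foxa2, Eno2, Galt, Pdk4, Lipe and Slc2a4 among the genes named. None of these passed with the control as a mix of 7 mice.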
